A study of Mus musculus with 24 samples.

Results

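Dnmt1, Uhrf1, Tet1, Tet2 and Mbd2 were followed along the route by which mouse pluripotent cells give rise to germ cells. They were taken as every probe set that the array annotation lists for 1 of these symbols alone, which gave 13 probe sets for 5 of the 18193 genes so named: 3 for Dnmt1, 2 for Uhrf1, 4 for Tet1, 2 for Tet2 and 2 for Mbd2. RNA abundance had been measured on 24 Affymetrix mouse arrays, in 12 groups of 2, all of strain C57BL/6. On unamplified arrays these were embryonic stem cells (ESCs) kept feeder free in 2i+LIF, epiblast-like cells (EpiLCs) on days 1, 2 and 3 of induction from ESCs, EpiSCs (epiblast stem cells, from embryonic day 5.75 epiblast grown in culture), and primordial germ cell-like cells (PGCLCs), induced from day 2 EpiLCs. On arrays of PCR-amplified cDNA (22 cycles from 5 ng of total RNA, the content of 500 cells) they were ESCs, day 2 EpiLCs, EpiSCs, PGCLCs, the epiblast of the embryo before gastrulation (embryonic day 5.5 to 6.0) and PGCs (primordial germ cells) of embryonic day 9.5. The labels call the 2 samples of a group biological replicates. They do not give how PGCLCs and PGCs were isolated, the medium and feeders of EpiSCs, or whether the replicates of a group came from different cultures or litters. A p-value here therefore rests on the scatter among these samples alone. The 2 kinds of array are described apart throughout.

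DNA methylation at CpG sites is copied after replication by Dnmt1, the maintenance methyltransferase, which Uhrf1 brings to the hemimethylated sites of newly made DNA. Tet enzymes oxidise 5-methylcytosine to 5-hydroxymethylcytosine and further products, which can be lost by dilution or excised by base excision repair. Mbd2 binds methylated CpG and is a subunit of a nucleosome remodelling and deacetylase (NuRD) complex. Germ cell precursors lose most of their DNA methylation in the embryo, and the abundance of these transcripts bears on which of the steps is in place, although no methylation was measured on these arrays.

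Dnmt1 and Uhrf1, which act at the same step, had different RNA profiles, so one start site region of each is shown. Of the start sites that RefSeq lists for each gene (build GRCm38.p6), the one whose 300-base window, from 250 bases before the start to 50 after it, holds the most CpG is printed. Each window holds 33 CpG, the number it was chosen for, against a median of 7 over 32851 windows of RefSeq. The windows listed at the start of the gene itself hold 2 CpG for Dnmt1 and 12 for Uhrf1, and a further window of Dnmt1 holds 12. Capitals mark matches, on both strands, to the box CCAAT, to the GC box GGGCGG and to 2 E2F-type sites, the letters TTTCCCGC and the letters TTTGGCGC.
Dnmt1, chr9:20952574-20952873, minus strand: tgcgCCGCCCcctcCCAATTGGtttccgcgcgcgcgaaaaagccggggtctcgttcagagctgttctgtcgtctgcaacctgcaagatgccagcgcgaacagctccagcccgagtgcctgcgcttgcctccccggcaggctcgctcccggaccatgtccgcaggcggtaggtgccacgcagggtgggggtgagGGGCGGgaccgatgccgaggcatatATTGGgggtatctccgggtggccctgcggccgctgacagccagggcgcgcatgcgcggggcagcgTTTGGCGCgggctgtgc
Uhrf1, chr17:56304063-56304362, plus strand: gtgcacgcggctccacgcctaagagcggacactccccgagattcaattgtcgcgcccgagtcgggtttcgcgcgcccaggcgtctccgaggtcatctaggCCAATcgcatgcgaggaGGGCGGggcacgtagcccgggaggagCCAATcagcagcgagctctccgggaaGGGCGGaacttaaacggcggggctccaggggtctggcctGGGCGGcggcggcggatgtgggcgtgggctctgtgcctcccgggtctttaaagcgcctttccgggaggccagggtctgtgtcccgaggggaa
The Dnmt1 window has 3 matches to CCAAT, the first 2 overlapping on opposite strands, 2 to GGGCGG and 1 to TTTGGCGC. The Uhrf1 window has 2 matches to CCAAT, 3 to GGGCGG and 0 to either of the 2 E2F-type sequences searched. The related letters TTTCGCGC were not searched for and are not marked. They occur in the Uhrf1 window and, on the opposite strand, in the Dnmt1 window, so these counts do not show that Uhrf1 lacks an E2F-type site. Among all windows 37.4% hold CCAAT, 35.7% hold GGGCGG and 1.56% hold either E2F-type sequence. A match describes these letters only. The start site windows of Tet1 and Tet2 listed in the same table hold 17 and 57 CpG.

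Array facts that touch the results are as follows. Unamplified replicates correlated across probe sets at r = 0.969 to 0.988. Amplified replicates correlated at 0.946 to 0.968, except for EpiSCs at 0.909. The ratio of 5′ to 3′ signal of Actb, a measure of how far cDNA reaches from the 3′ end, was 0.792 to 0.874 without amplification and 0.0503 to 0.206 with it. A summed level of 7 germ cell markers was 15357 to 15584 in unamplified PGCLCs, 15025 to 17054 in amplified PGCLCs and 16103 to 20392 in PGCs, against 4185 or less in every other group. The summed level of 9 fibroblast markers was 15143 to 15228 in unamplified EpiSCs, with 9 of 9 above the filter level on both arrays, against 1421 to 4548 in the other unamplified groups. In amplified EpiSCs it was 4184 and 7121. In these bulk samples fewer cells of a type and less RNA per cell cannot be told apart.

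Differences are log2 of the first group over the second ± standard error (n = 2 arrays per group) from limma fits over all probe sets of a set of arrays, with Benjamini-Hochberg adjusted p. To be called, a difference had to have an adjusted p under 0.05 and a size of 1 or more on the log2 scale, a fold of 2. Each gene is counted through 1 representative, the probe set of highest mean log2.

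**Figure D1:**
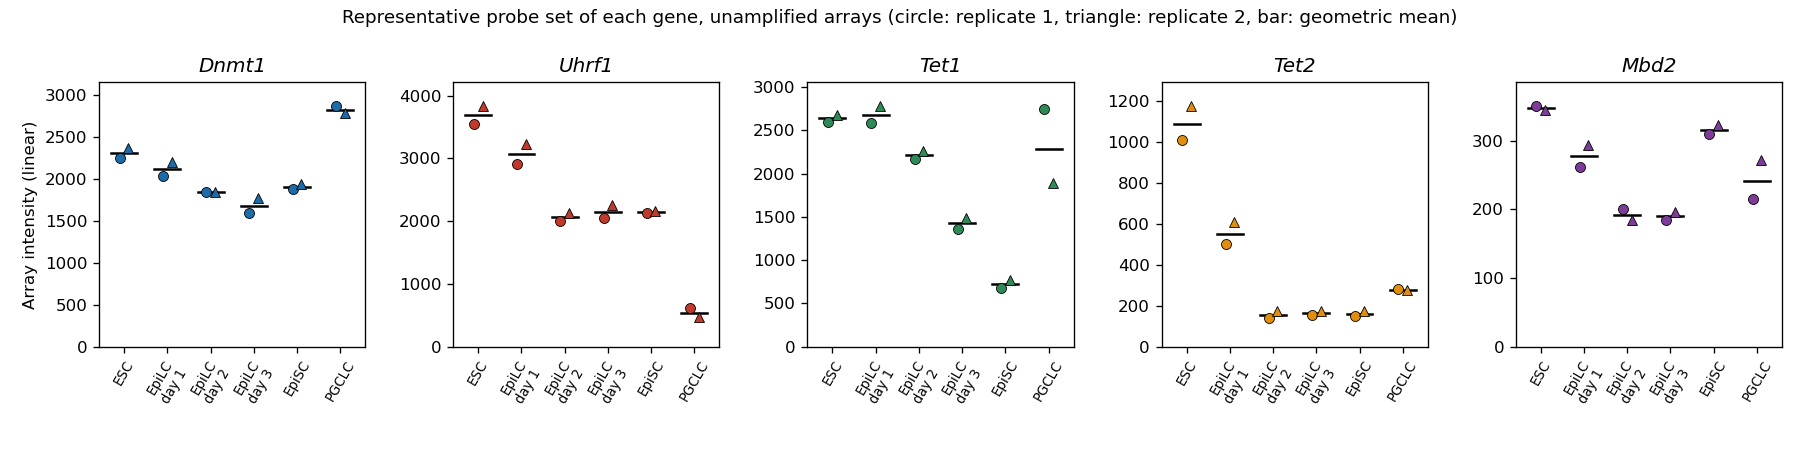
Intensity (linear scale) of the representative probe set of each gene on the 12 unamplified arrays, with circles for replicate 1, triangles for replicate 2 and bars for the geometric mean. Dnmt1 is highest in PGCLCs (2789 and 2873), where Uhrf1 is lowest (464 and 609), and Tet2 drops over the first 2 days of EpiLC induction.

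Dnmt1 RNA was present at high intensity in every group and was not called in any of the 35 contrasts fitted, in which 0.234 to 24.4% of all genes were called. On unamplified arrays its probe set 1422946_a_at read 2251 and 2373 in ESCs, 2041 and 2208 in day 1 EpiLCs, 1852 and 1846 on day 2, 1600 and 1775 on day 3, 1877 and 1941 in EpiSCs, and 2873 and 2789 in PGCLCs. Both PGCLC arrays lay above all the others. PGCLCs exceeded day 2 EpiLCs, their precursors, by 0.61 ± 0.06 (adjusted p = 1.71e-05), a 1.53-fold difference that stays under the 2-fold limit, and exceeded ESCs by 0.29 ± 0.06 (adjusted p = 0.00302). The other 2 probe sets gave 0.70 ± 0.07 and 0.55 ± 0.08 for PGCLCs minus day 2 EpiLCs. In the order of group means, PGCLCs and ESCs differed, whereas each further neighbour pair (ESCs, day 1 EpiLCs, EpiSCs, day 2 and day 3 EpiLCs) had an adjusted p of 0.0656 or more.

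On amplified arrays Dnmt1 again read highest in the germ cell groups. The 2 arrays gave 1835 and 2388 in ESCs, 1765 and 1822 in day 2 EpiLCs, 1749 and 2407 in EpiSCs, 1846 and 1908 in the epiblast, 2783 and 3297 in PGCLCs, and 2834 and 3179 in PGCs. All 4 germ cell arrays lay above the 8 others. PGCLCs minus day 2 EpiLCs was 0.76 ± 0.22 (adjusted p = 0.0603) and PGCs minus epiblast 0.68 ± 0.22 (adjusted p = 0.103), so neither was called. PGCLCs and PGCs differed by 0.01 ± 0.22, with overlapping arrays.

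Uhrf1 RNA fell in PGCLCs. On unamplified arrays 1415810_at read 3543 and 3834 in ESCs, 2907 and 3234 in day 1 EpiLCs, 2000 and 2136 on day 2, 2056 and 2250 on day 3, 2131 and 2155 in EpiSCs, and 609 and 464 in PGCLCs. The PGCLC arrays lay apart from all others, at 14.4% of the ESC level. PGCLCs were 3.89-fold below day 2 EpiLCs (-1.96 ± 0.11, adjusted p = 2.38e-07) and lower than ESCs by -2.79 ± 0.11 (adjusted p = 1.93e-08). The second probe set, 1415811_at, read 460 and 410 in day 2 EpiLCs and 112 and 82 in PGCLCs, a difference of -2.18 ± 0.13 (adjusted p = 2.92e-07). Uhrf1 was the 1 of 5 genes called between PGCLCs and day 2 EpiLCs, where 20.5% of all genes tested were called in either direction.

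A smaller step preceded it. Day 2 EpiLCs differed from ESCs by -0.83 ± 0.11 (adjusted p = 0.000147) and from day 1 EpiLCs by -0.57 ± 0.11 (adjusted p = 0.00368), both under the 2-fold limit. By the representative, day 2 EpiLCs, day 3 EpiLCs and EpiSCs were neighbours in the order with adjusted p of 0.739 or more. The second probe set put EpiSCs lower, at 334 and 340, against 460 and 410 on day 2 and 443 and 439 on day 3.

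**Figure D2:**
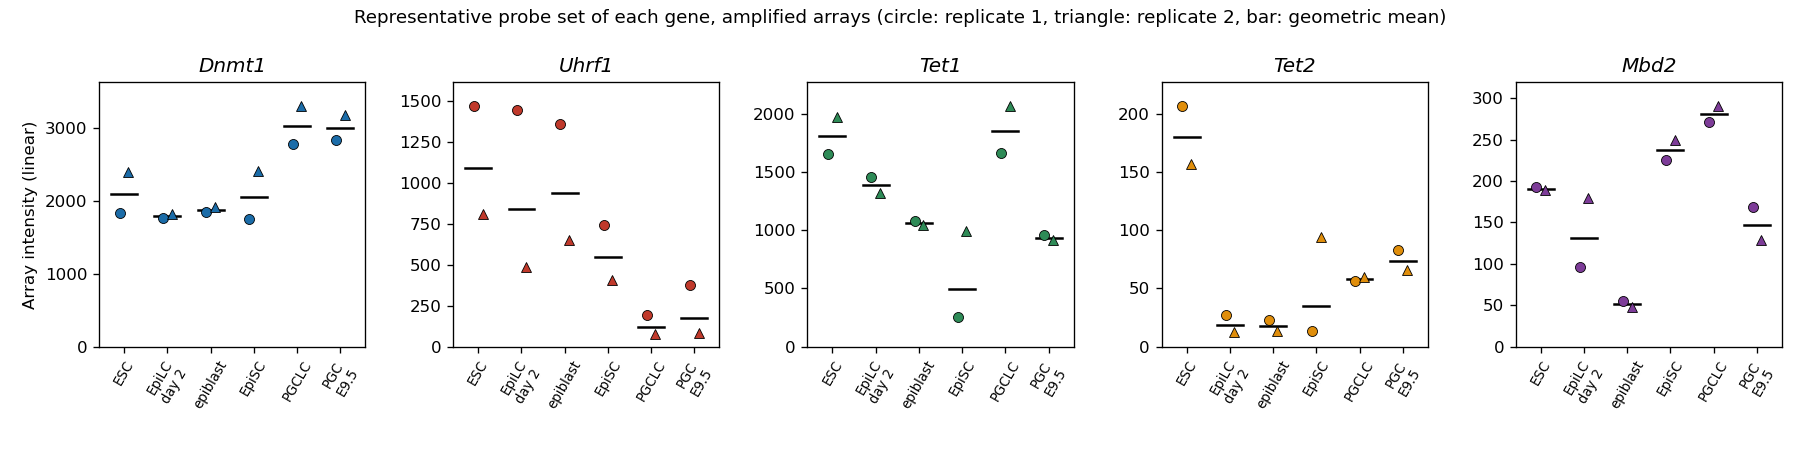
Intensity (linear scale) of the same probe sets on the 12 amplified arrays, with circles for replicate 1, triangles for replicate 2 and bars for the geometric mean. Uhrf1 reads lower in replicate 2 than in replicate 1 of all 6 groups and lowest in PGCLCs and PGCs, and the 2 EpiSC arrays differ widely in Tet1 (250 and 991) and Tet2 (13 and 94).

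On amplified arrays Uhrf1 again read lowest in germ cells, with a larger spread between replicates. It read 1466 and 808 in ESCs, 1445 and 485 in day 2 EpiLCs, 742 and 404 in EpiSCs, 1354 and 650 in the epiblast, 195 and 75 in PGCLCs, and 376 and 82 in PGCs. All 4 germ cell arrays lay below the 8 others, and replicate 2 was the lower array in every group. PGCLCs were lower than ESCs by -3.16 ± 0.81 (adjusted p = 0.0403), a call lost on leaving out any single array of the 4, with the floor set at the 40th percentile (adjusted p = 0.0669) or with no filter on low values (adjusted p = 0.103). PGCLCs minus day 2 EpiLCs was -2.79 ± 0.81 (adjusted p = 0.0602) and PGCs minus epiblast -2.42 ± 0.81 (adjusted p = 0.115), neither called.

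The amplified replicate numbers deviated together across groups, and a fit with that number as a block called these differences: -2.79 ± 0.31 (adjusted p = 0.000481) for PGCLCs minus day 2 EpiLCs, an adjusted p of 0.00122 for PGCs minus epiblast and of 0.000524 for PGCs minus ESCs (-2.63). The second probe set lay at 39 or less on every amplified array and at 1 to 2 on the 4 germ cell arrays. It passed the filter only through 4 of 12 arrays, all of groups where it is higher, so no test of it is given for the amplified germ cell groups. Of the 5 genes, 1 was called between PGCLCs and ESCs (10.4% of all genes), 0 between PGCLCs and day 2 EpiLCs (11.8%) and 0 between PGCs and ESCs (13.3%). In PGC arrays the summed level of 4 blood markers was 626 and 2751, against 241 or less in the other amplified groups. On both PGC arrays 2 of the 4 lay above the filter level and 2 lay below it. In amplified ESCs, day 2 EpiLCs, epiblast and PGCLCs 3 of 4 lay above it. The sum thus rests on part of the list, and its part in the PGC values was not tested.

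Tet1 RNA fell in EpiSCs and stood near the ESC level in PGCLCs. On unamplified arrays 1455425_at read 2599 and 2676 in ESCs, 2586 and 2779 in day 1 EpiLCs, 2164 and 2256 on day 2, 1360 and 1490 on day 3, 675 and 775 in EpiSCs, and 2746 and 1892 in PGCLCs. EpiSC arrays were the lowest, day 3 EpiLCs came next, and the 2 PGCLC arrays lay on either side of ESCs and day 2 EpiLCs. EpiSCs were 3.05-fold below day 2 EpiLCs (-1.61 ± 0.14, adjusted p = 5.59e-06) and lower than ESCs by -1.87 ± 0.14 (adjusted p = 1.15e-06). All 4 probe sets were called in both comparisons. Of these, 1419897_at read 13.1 and 9.7 in EpiSCs, under the filter level of 28.1. It passed the filter only through arrays of groups where it is higher, so its calls add no support. Of the 5 genes 1 was called for EpiSCs minus day 2 EpiLCs, beside 18.7% of all genes, and 2 for EpiSCs minus ESCs, beside 24.3%. Fibroblast markers were high in the same EpiSC arrays, and their part in the Tet1 difference was not tested.

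The probe sets of Tet1 disagreed for day 3. The representative gave -0.63 ± 0.14 for day 3 minus day 2 EpiLCs (adjusted p = 0.00906, under the 2-fold limit), whereas 1429448_s_at gave 0.35 ± 0.28 and read 1472 and 1435 on day 3. PGCLCs minus day 2 EpiLCs was 0.04 ± 0.14 (adjusted p = 0.817), with overlapping arrays, and PGCLCs exceeded EpiSCs by 1.66 ± 0.14 (adjusted p = 2.87e-06; 2 of 5 genes called, with Uhrf1, beside 24.4%).

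On amplified arrays Tet1 read 1656 and 1968 in ESCs, 1452 and 1317 in day 2 EpiLCs, 250 and 991 in EpiSCs, 1078 and 1040 in the epiblast, 1661 and 2065 in PGCLCs, and 954 and 915 in PGCs. Both EpiSC arrays lay below day 2 EpiLCs, but they were far apart from each other. EpiSCs minus ESCs was called (-1.86 ± 0.50, adjusted p = 0.0349; 1 of 5 genes beside 15.5%). It was -0.87 without EpiSC replicate 1, which is under the 2-fold limit, -2.85 without EpiSC replicate 2, and lost its call without ESC replicate 1 (adjusted p = 0.125) or 2 (0.164), with no filter on low values (0.0809) or a floor at the 40th percentile (0.0538). EpiSCs minus day 2 EpiLCs was not (-1.48 ± 0.50, adjusted p = 0.0971; 0 of 5 genes beside 11.6%), but was called with the replicate block (adjusted p = 0.0456) and without EpiSC replicate 2 (-2.47); without EpiSC replicate 1 it was -0.48. The probe set 1429448_s_at was called for it, at -1.71 ± 0.33 (adjusted p = 0.0105). PGCLCs read above both PGC arrays, by 0.99 ± 0.50 (adjusted p = 0.584), which was not called, and 0 of 5 genes were called between PGCLCs and PGCs, beside 2.43% of all genes. The probe set 1419896_at was above the filter level on 12 of 12 unamplified and 0 of 12 amplified arrays, and 1419897_at on 1 of 12 amplified arrays, so neither was tested there.

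Tet2 RNA fell over the first 2 days of EpiLC induction. On unamplified arrays 1455300_at read 1009 and 1174 in ESCs, 500 and 607 in day 1 EpiLCs, 139 and 175 on day 2, 155 and 175 on day 3, 148 and 171 in EpiSCs, and 280 and 275 in PGCLCs. Each of ESCs, day 1 EpiLCs and PGCLCs formed a separate level above day 2 EpiLCs, day 3 EpiLCs and EpiSCs, whose arrays overlapped. Day 2 EpiLCs were 6.97-fold below ESCs (-2.80 ± 0.14, adjusted p = 1.31e-07) and lower than day 1 by -1.82 ± 0.14 (adjusted p = 1.27e-05). Day 1 minus ESCs was -0.98 ± 0.14 (adjusted p = 0.000374), just under the 2-fold limit, and was called without ESC replicate 1 (-1.09) or day 1 replicate 2 (-1.12).

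Tet2 was the 1 of 5 genes called for day 2 EpiLCs minus ESCs (16.4% of all genes) and for day 2 minus day 1 (7.93%), and 0 were called for day 1 minus ESCs (11.9%) or day 3 minus day 2 (4.14%). The second probe set, 1438781_at, was called for day 2 minus ESCs too, at -1.65 ± 0.18 (adjusted p = 3.21e-05). In PGCLCs Tet2 was lower than in ESCs by -1.97 ± 0.14 (adjusted p = 1.17e-06), where Tet2 and Uhrf1 were 2 of 5 genes called beside 20.5%. PGCLCs minus day 2 EpiLCs was 0.83 ± 0.14 by the representative (adjusted p = 0.000668, not called), whereas the second probe set gave -0.34 ± 0.18.

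On amplified arrays Tet2 signal was low, at 207 and 157 in ESCs, 28 and 13 in day 2 EpiLCs, 13 and 94 in EpiSCs, 23 and 14 in the epiblast, 56 and 60 in PGCLCs, and 83 and 66 in PGCs. ESCs lay above all others, and 1 EpiSC array lay among the lowest while the other was the highest of the rest. Measured against the filter level, day 2 EpiLCs and the epiblast each lay at least 7.49-fold below ESCs. The tests used the values without that bound. This probe set was above the filter level of 24 on 8 of 12 amplified arrays. Both epiblast arrays and the lower day 2 EpiLC array lay under it, so the 2 calls that follow add no support beyond the readings. Day 2 EpiLCs minus ESCs was -3.25 ± 0.76 (adjusted p = 0.034, 1 of 5 genes beside 7.73%). ESCs minus epiblast was 3.35 ± 0.76 (adjusted p = 0.0214, 2 of 5 beside 11.2%). Neither was called with any 1 array left out or with no filter on low values (adjusted p = 0.0939 and 0.0655). The second probe set read 186 and 97 in day 2 EpiLCs and differed from ESCs there by -0.02 ± 0.36, so the probe sets disagree for day 2 EpiLCs. For ESCs minus epiblast it was called at 1.70 (adjusted p = 0.015).

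Mbd2 RNA was lowest in the epiblast among the amplified groups. 1417165_at read 193 and 189 in ESCs, 96 and 180 in day 2 EpiLCs, 226 and 250 in EpiSCs, 55 and 48 in the epiblast, 271 and 291 in PGCLCs, and 169 and 129 in PGCs. Both epiblast arrays lay below the 10 others. ESCs exceeded the epiblast by 1.90 ± 0.31 (adjusted p = 0.00409), EpiSCs by 2.21 ± 0.31 (adjusted p = 0.00208; 1 of 5 genes beside 10.6%; 2.28 and 2.14 without EpiSC replicate 1 or 2), PGCLCs by 2.45 ± 0.31 (adjusted p = 0.000907; 2 of 5, with Uhrf1, beside 12.9%; the Uhrf1 call was lost with the floor at the 40th percentile, with no filter and on leaving out any of the 4 arrays, at adjusted p of 0.0709 to 0.262) and PGCs by 1.52 ± 0.31 (adjusted p = 0.0146; 1 of 5 beside 9.67%). The PGC difference was not called without epiblast replicate 1 (adjusted p = 0.0714), epiblast replicate 2 (0.114) or PGC replicate 1 (0.0996). Day 2 EpiLCs minus epiblast was 1.36 ± 0.31 (adjusted p = 0.121), and 0 of 5 genes were called in that comparison, beside 0.801%. The second probe set, 1425803_a_at, did not put the epiblast lowest: it read 85 and 67 there and 33 and 28 in day 2 EpiLCs. With the mean of both probe sets ESCs minus epiblast was 0.56 and not called. Visceral endoderm markers, 6 in number, summed to 850 and 2853 in the epiblast arrays against 103.6 to 534.9 in the other amplified groups, and their part in the epiblast values was not tested.

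On unamplified arrays Mbd2 read 350 and 345 in ESCs, 262 and 294 in day 1 EpiLCs, 200 and 184 on day 2, 185 and 196 on day 3, 310 and 322 in EpiSCs, and 215 and 272 in PGCLCs. Day 2 and day 3 EpiLCs were the lowest, and the representative was called in none of the 15 pairs. The second probe set read 53 and 47 in day 2 EpiLCs, 189 and 188 in EpiSCs, and 150 and 158 in PGCLCs. It was called for EpiSCs minus day 2 EpiLCs at 1.91 ± 0.14 (adjusted p = 1.56e-06) and for PGCLCs minus day 2 EpiLCs at 1.63 ± 0.14 (adjusted p = 4.25e-06), where the representative gave 0.72 ± 0.12 and 0.33 ± 0.12. The amplified arrays showed the same split for PGCLCs minus day 2 EpiLCs, with 1.89 ± 0.41 by the second probe set (adjusted p = 0.0171) and 1.09 ± 0.31 by the representative (adjusted p = 0.0518; 0.0316 with the replicate block, called).

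**Figure D3:**
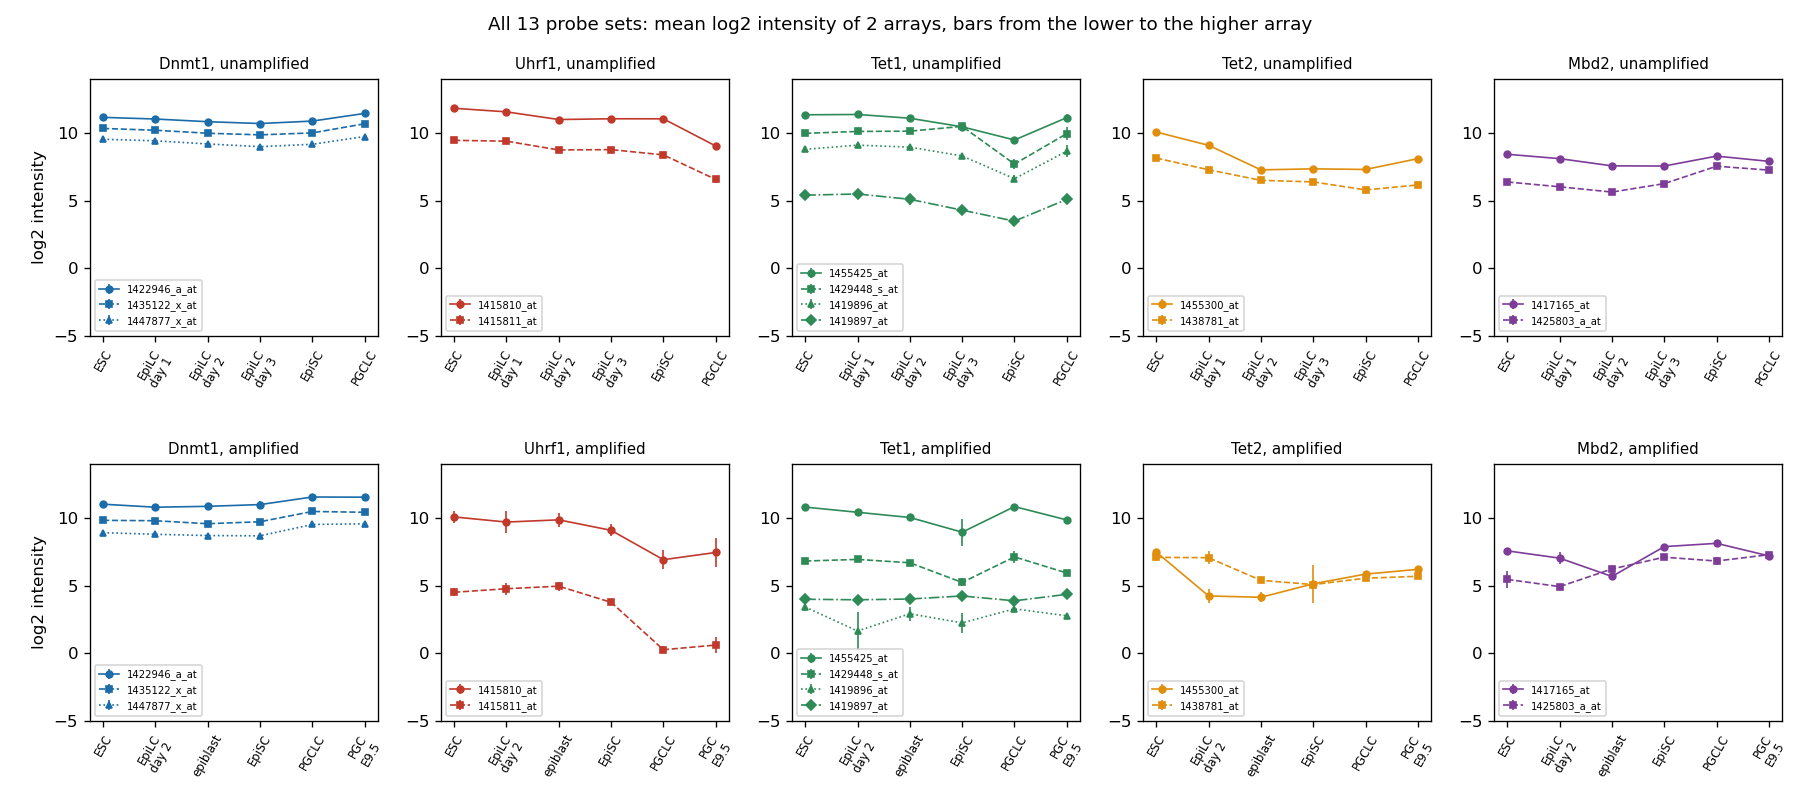
Mean log2 intensity of all 13 probe sets in the 6 groups of each set of arrays, with bars from the lower to the higher array of a group. All 3 probe sets of Dnmt1 are highest and both of Uhrf1 lowest in the germ cell groups, whereas those of Tet2 and Mbd2 cross on amplified arrays and 2 of Tet1 lie near the bottom there.

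**Figure D4:**
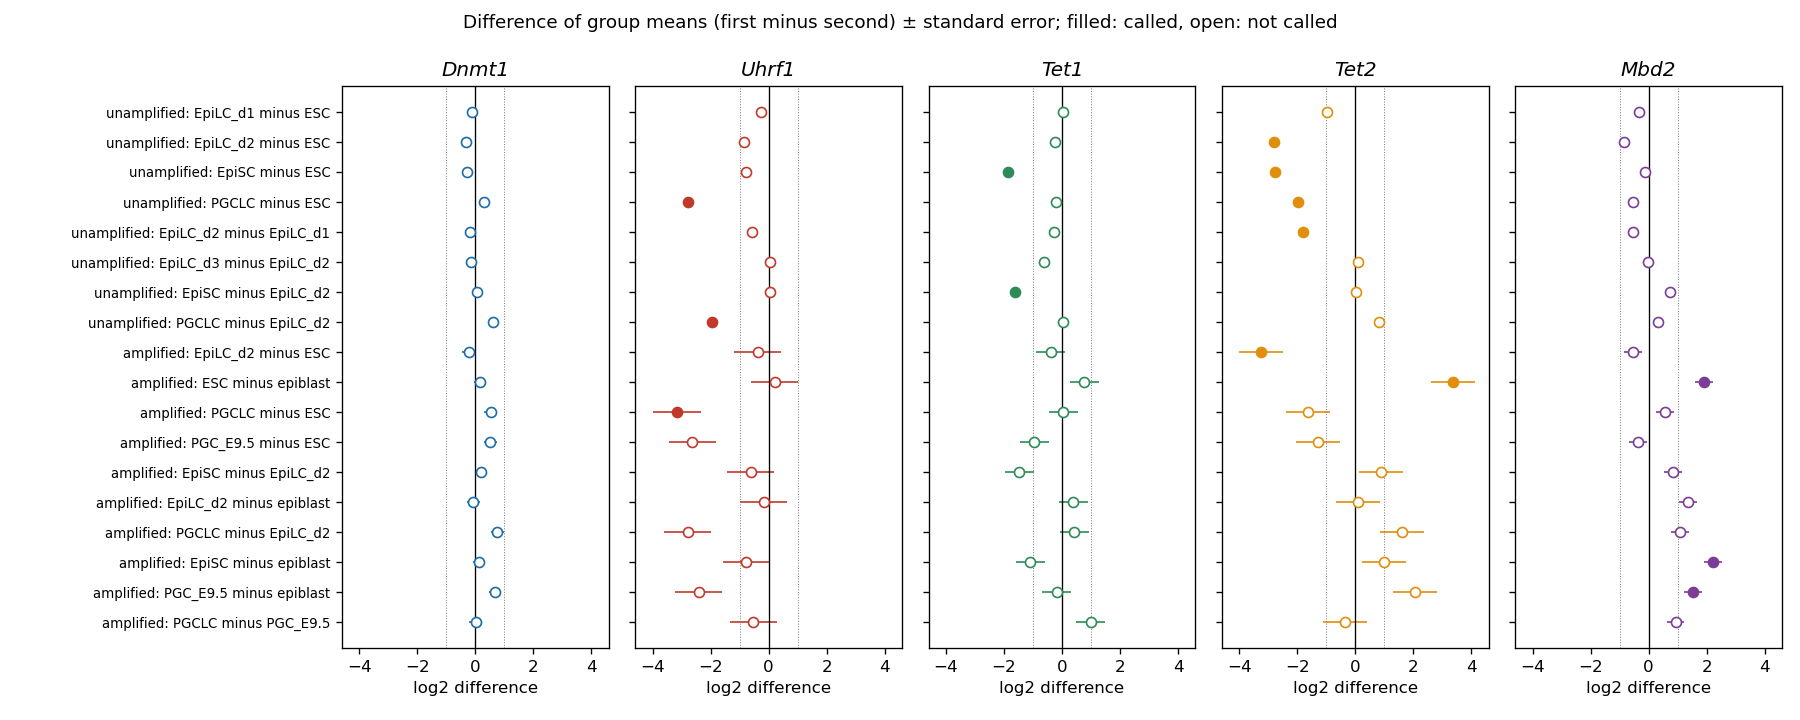
Log2 difference ± standard error of the representative probe set of each gene in 18 comparisons, filled where called and open where not, with dotted lines at -1 and 1. Dnmt1 has no filled point, and the standard errors of Uhrf1, Tet1 and Tet2 are wider on amplified arrays (0.81, 0.50 and 0.76) than on unamplified arrays (0.11, 0.14 and 0.14).

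Differences shared by both kinds of array were compared directly for day 2 EpiLCs minus ESCs, EpiSCs minus day 2 EpiLCs, PGCLCs minus day 2 EpiLCs and PGCLCs minus ESCs. In these 4 contrasts 0 of 5 genes were called for a dependence on amplification, beside 0.77%, 0.234%, 0.776% and 3.55% of all genes, and with standard errors of 0.22 to 0.89 a dependence of 2-fold lies within 2 standard errors of 0 for Uhrf1, Tet1 and Tet2. The step from day 2 EpiLCs to PGCLCs, set against that from epiblast to PGCs, differed by 0.08 ± 0.31 for Dnmt1, -0.37 ± 1.15 for Uhrf1, 0.60 ± 0.71 for Tet1, -0.45 ± 1.07 for Tet2 and -0.43 ± 0.43 for Mbd2, with 0 of 5 called, beside 0.288% of all genes. For Tet2 the second probe set, 1438781_at, went the other way in culture. It read 49 and 45 in amplified PGCLCs against 186 and 97 in day 2 EpiLCs, a called decrease, where the representative was higher in PGCLCs. In the embryo it read 56 and 48 in PGCs against 44 and 40 in the epiblast. Of 11 probe sets tested, 0 were called for the difference of the steps.

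Other genes of the same pathways were taken from 5 lists. Of 19 genes of the methylation machinery, with 2 of the members among them, 2 were higher and 6 lower in unamplified PGCLCs than in day 2 EpiLCs. The median difference was -0.33 against -0.09 over all genes, of which 20.5% were called in either direction. Dppa3, whose product can keep Uhrf1 from chromatin, is also 1 of the 7 germ cell markers. It rose by 4.10 ± 0.30 (intensity 264 to 4510, adjusted p = 1.31e-06). Uhrf2, a relative of Uhrf1, rose by 1.38 ± 0.10 (223 to 583, adjusted p = 1.59e-06), opposite to Uhrf1. The de novo methyltransferases Dnmt3a (-4.93 ± 0.13, 3019 to 99) and Dnmt3b (-5.93 ± 0.26, 9652 to 158) had the largest decreases of the list. In amplified PGCLCs minus day 2 EpiLCs, 2 rose and 3 fell, beside 11.8% of all genes called. Uhrf2 was at 1.47 ± 0.37 (adjusted p = 0.033) and Dppa3 at 4.17 ± 0.36 (adjusted p = 0.000152).

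Of 23 genes for Tet enzymes and base excision repair, 20 were named on the array. In unamplified day 2 EpiLCs minus ESCs 2 were higher, Gadd45g and Gadd45a, and 2 lower, Tet2 and Idh2, beside 16.4% of all genes called. Idh2 makes the 2-oxoglutarate that Tet enzymes need (-1.49 ± 0.06, adjusted p = 3.87e-08). In PGCLCs minus day 2 EpiLCs 3 were higher and 2 lower, beside 20.5% of all genes called. Rises were those of Gadd45b, a stress-induced gene linked to repair (1.95 ± 0.10), and Ung, a uracil glycosylase (1.17 ± 0.05, adjusted p = 4.45e-08), among others. Tet3, the remaining Tet enzyme, read 149 and 136 in ESCs, 169 and 145 in day 2 EpiLCs, and 92 and 146 in PGCLCs.

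Of 21 genes for replication and S phase, the phase in which methylation is copied, 20 were tested on unamplified arrays. In PGCLCs minus day 2 EpiLCs 0 were higher and 1 lower, Chaf1b of the chromatin assembly factor (-1.60 ± 0.07, 946 to 312). The median was 0.18 against -0.09 over all genes, of which 20.5% were called. Pcna, the replication clamp, read 7028 and 6479 in day 2 EpiLCs and 7556 and 7502 in PGCLCs. In amplified PGCs minus epiblast 0 of 19 tested were higher and 2 lower, Chaf1b and Ccne1, beside 9.67% of all genes called.

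Among 19 methyl-CpG readers and NuRD subunits, 18 were named. In unamplified PGCLCs 2 were higher and 0 lower than in day 2 EpiLCs, beside 20.5% of all genes called. These were Mbd1 (1.69 ± 0.15) and Chd3 (1.00 ± 0.25, adjusted p = 0.00741). In PGCs minus epiblast the 2 higher were Chd3 (2.51 ± 0.24) and Mbd2, beside 9.67% of all genes called. Of 14 genes for the methyl donor, 9 were tested on unamplified arrays. In PGCLCs 1 was higher, Shmt1 (1.44 ± 0.06), and 3 lower than in day 2 EpiLCs, Mthfd2 with the largest decrease (-1.87 ± 0.09). Of all genes, 20.5% were called there.

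Genes with profiles most like each member were ranked by the mean of Pearson's r over the 6 unamplified and the 6 amplified group means, among 5848 to 5849 genes that varied at least 2-fold in both. These values are descriptions over few points that share arrays. Closest to Dnmt1 were Dop1a, Tesk2 and Aamp (mean r 0.978, 0.970 and 0.970), and to Uhrf1 Gsto1, Cnp and Ankmy2 (0.981, 0.978 and 0.975). Tet1 was closest to Zfp819, Tigar and Zfp42 (0.970, 0.966 and 0.966), Tet2 to Jam2, Serpinb6c and Notum (0.985, 0.971 and 0.971), and Mbd2 to Smox, Lxn and Pcdh19 (0.908, 0.897 and 0.889).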

How the data were processed

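Biotin-labelled cRNA of total RNA was hybridised to 45101 probe sets, per the labels' protocols, for 12 samples directly and for 12 after PCR amplification. The deposited values are linear intensities, 1 per probe set and array (1 to 17519), with software and normalization not given in the sources used here. Array medians were 41.1 to 49.2 without and 36.2 to 40.0 with amplification; precision is limited by the small number of arrays.

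Values under the 10th percentile (4.2) were raised to it before log2. Probe sets above the 40th percentile of their set (28.1 unamplified, 24 amplified) on at least 2 of 12 arrays were tested (32007 and 32023) in R 4.3.3 by limma 3.58.1, fitting group means with a variance trend and 6 residual degrees of freedom. The method was tested on simulated data, where fewer changes were recovered on amplified than on unamplified arrays, so an uncalled difference there says little. P-values are two-sided; 2 arrays against 2 allow no informative exact permutation test of a single gene.

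All probe sets of the 5 genes were named, the 3 genes most alike to each, and called list genes, at most 2 rises and 2 falls per list and comparison, with Tet3 and Pcna added after their values were seen. The members and lists were chosen with earlier results of these data known. Amplified replicate numbers, which coincide with a code in the array names, deviated together in 15 of 15 pairs of groups (median r 0.41), so blocked values are given there. Alternatives covered floor, filter, scaling, gene summary, replicate block and each array left out.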

Additional observations from a re-analysis of the deposited data

Results flagged for a closer look

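For the representative probe set of Mbd2, PGCLCs minus ESCs pointed in opposite directions on the 2 kinds of array: both PGCLC arrays lay below both ESC arrays when unamplified and above them when amplified. The difference between the 2 contrasts was 1.08 ± 0.33 on the log2 scale (adjusted p = 0.0944, limma), which was not called. Its other probe set read higher in PGCLCs on both kinds of array (0.88 ± 0.14 unamplified and 1.36 ± 0.41 amplified), and with the mean of both probe sets the unamplified difference was 0.18. For the representative of Tet1, both PGCLC arrays lay above day 2 EpiLCs while both PGC arrays lay below the epiblast on amplified arrays. The difference between those steps was 0.60 ± 0.71 (adjusted p = 0.991, limma), which was not called. By 1429448_s_at PGCs again lay below the epiblast, but PGCLCs (104 and 188) overlapped with day 2 EpiLCs (141 and 107).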

How the results depend on the processing

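Of 2200 values of single genes recomputed under other settings, 2020 kept their direction and call, 36 lost a call, 53 gained one, 91 uncalled values changed sign and 0 called values reversed. The counts of the 5 genes called moved in these comparisons, and the cause was not tested. Without a filter on low values the count was 0 in place of 1 for amplified day 2 EpiLCs minus ESCs and for PGCLCs minus ESCs. It was 1 in place of 2 for ESCs minus epiblast. The share of all genes called there went from 7.73% to 5.29%, 10.4% to 7.33% and 11.2% to 7.98%. With the floor at the 40th percentile the count was 0 for amplified PGCLCs minus ESCs (10.4% to 8.78% of all genes). With quantile normalization it was 1 in place of 0 for amplified EpiSCs minus day 2 EpiLCs (11.6% to 11.7%). With arrays centred on their median it was 1 in place of 0 for PGCLCs minus day 2 EpiLCs (11.8% to 12%). With genes fitted by their highest probe set it was 2 for amplified PGCLCs minus day 2 EpiLCs (11.8% to 12.7%). With the mean of a gene's probe sets it was 2 for unamplified EpiSCs minus day 2 EpiLCs, and on amplified arrays 1 for EpiSCs minus day 2 EpiLCs, 2 for PGCLCs minus day 2 EpiLCs, 2 for PGCLCs minus ESCs, 1 for ESCs minus epiblast, 2 for PGCs minus epiblast and 1 for PGCs minus ESCs, with 9.7% to 17.5% of all genes called in these. For Uhrf1 this mean includes 1415811_at, which lay at the floor with an SD of 0 in amplified PGCLCs and PGCs. The Uhrf1 calls in these counts for amplified germ cell groups therefore add no support. Over the other 12 pairs of groups the mean of probe sets gave 20 calls in place of 12 (17.2% of all genes, against 17.9%), with the same limit for Uhrf1. There the other settings gave 10 with the floor at the 40th percentile (15.2%), 9 with no filter (14.6%), 13 with median centring (17.9%), 15 with quantile normalization (17.8%) and 15 with the block (19.8%). With the replicate block on amplified arrays it was 1 for EpiSCs minus day 2 EpiLCs, 2 for PGCLCs minus day 2 EpiLCs, 2 for PGCs minus epiblast and 1 for PGCs minus ESCs, while the share of all genes called went from 11.6% to 17%, 11.8% to 16.4%, 9.67% to 13.5% and 13.3% to 17%. On unamplified arrays the numbers deviated together in 5 of 15 pairs of groups (median r 0.07), so they are not taken as pairs, and the block moved no count there.

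With each array left out in turn, the count ranged from 0 to 1 for unamplified day 1 EpiLCs minus ESCs and, on amplified arrays, for EpiSCs minus day 2 EpiLCs, PGCLCs minus day 2 EpiLCs, PGCs minus epiblast and PGCs minus ESCs. It was 0 throughout for amplified day 2 EpiLCs minus ESCs and PGCLCs minus ESCs, 1 throughout for ESCs minus epiblast, and 1 to 2 for EpiSCs minus epiblast. For the dependence on amplification it was 0 to 2 for EpiSCs minus day 2 EpiLCs, with Tet1 (1.13) and Tet2 (2.29) called without amplified EpiSC replicate 1, where the share of all genes called went from 0.234% to 16.6%, and 0 to 1 for PGCLCs minus day 2 EpiLCs, with Mbd2 (1.21) called without amplified EpiLC replicate 2 (0.776% to 1.75% of all genes). Over the other 12 pairs it was 9 to 18. A lone array is assumed to vary like the other groups. For the pairs of amplified groups named here, the share of all genes or probe sets called moved as well. It rose without EpiSC replicate 1 and fell without any other array of the compared groups. Over the other 12 pairs the share of all genes called moved both ways. A moved count on amplified arrays is thus not a property of these genes alone.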
